A study of Mus musculus with 26 samples.

Results

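The collagen genes of fetal reproductive tract mesenchyme are described here: all genes whose symbol reads Col, a number, a and a number. Each of the 2 RNA-seq tables lists 44 such genes among 41442 rows, and they were chosen by name, not by their values. They were sorted by textbook assembly into 11 fibrillar, 9 network-forming, 9 FACIT (fibril-associated collagens with interrupted triple helices) and 15 other collagens. The network group holds 6 chains of basement membrane type IV and 3 hexagonal-lattice chains. The last group holds 6 type VI chains, 4 transmembrane collagens, 2 multiplexins and 3 others (Col7a1, Col26a1 and Col28a1).

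Collagens are secreted triple helices made of 3 chains, and the mesenchyme is the main source of the fibrillar types in most organs. Fibrils of types I, III and V carry tension, FACITs coat those fibrils, type VI forms beaded filaments around cells, and type IV forms the sheet of basement membranes under epithelia and around muscle and vessels. Mesenchyme around the Wolffian and Müllerian ducts lays down the stroma and the muscle coat of the male and female tracts. Chains need hydroxylases, glycosyltransferases and the chaperone Hsp47 (Serpinh1) in the cell, and proteases and lysyl oxidases outside it.

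Reporter-positive cells were sorted from mouse embryos carrying Gli1-CreER with Rosa-Tomato, or Amhr2-Cre with Rosa-Tomato, and all dams received 1 mg of tamoxifen on E12.5 and again on E13.5. A CreER under Gli1 marks cells that expressed this hedgehog target when tamoxifen was given, and a Cre under Amhr2 marks cells that expressed the receptor of anti-Müllerian hormone, together with their descendants. Gli1+ cells came from mesonephroi of XX and XY embryos at E14.5 and at E16.5, 3 RNA-seq libraries in each of 4 groups. Gli1+ and Amhr2+ cells also came from the uterus at E19.5, labelled neonatal, with 3 libraries each. Nothing in the labels says that libraries came from separate animals or litters, so p-values measure the spread between these libraries. In bulk samples fewer cells of a type and less RNA per cell cannot be told apart. With 3 libraries against 3 an exact permutation test of one value cannot go below p = 0.1, so calls come from a model over all genes.

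Totals were 23382983 to 64602477 counts in the fetal and 28709191 to 37541045 in the uterine libraries, and 3 counts, taken as the floor, equal 0.0464 to 0.128 and 0.0799 to 0.104 CPM. CPM here is a count scaled to a common library size with TMM (trimmed mean of M values). Labels and sex genes matched in direction: Xist had 99971 to 143120 counts in fetal XX libraries and at most 899 in XY libraries. The 899 counts were in E14.5 XY replicate 3, against 16 and 39 in its group and 17 to 23 in E16.5 XY libraries. The E14.5 XX library of replicate 3 held 60 counts of the Y-linked Ddx3y, against 0 and 0 in its group. In that library 5 globin genes summed to 959.6 CPM, against 4.78 and 17.9 in the other two. Amhr2 had 269 to 465 counts in uterine Amhr2+ and 111 to 169 in uterine Gli1+ libraries. The 5 mesenchyme markers (Pdgfra, Pdgfrb, Vim, Tcf21 and Gli1) were present in every group and summed to 1790 to 2882 CPM over all libraries, and 6 epithelial markers (Epcam, Cdh1, Krt8, Krt18, Krt19 and Cldn6) to 21.4 to 72.9 CPM. Gli1 itself was read in Amhr2+ libraries too, at 222 to 457 counts against 540 to 684 in uterine Gli1+ libraries.

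Of the 44 collagens, 42 passed the filter on low counts in each table. Col10a1, a product of hypertrophic cartilage, and the FACIT Col19a1 did not pass in either. Collagens took 5.08% to 5.78% of all counts at E14.5, 7.64% to 8.71% in E16.5 XX and 6.49% to 8.39% in E16.5 XY libraries. In the uterus they took 4.58% to 5.01% in Amhr2+ and 7.94% to 9.10% in Gli1+ libraries. The ranges of the E14.5 and E16.5 libraries did not overlap, and neither did those of the uterine populations. Fibrillar chains made up most of this: 76.3% ± 0.245 (SD, n = 3) of collagen CPM in E14.5 XX, 73.0% ± 0.935 in E14.5 XY, 77.0% ± 0.911 in E16.5 XX and 71.9% ± 1.45 in E16.5 XY. In the uterus their share was 62.1% ± 1.11 in Amhr2+ and 70.2% ± 0.644 in Gli1+ cells. Type VI made up 25.9% ± 0.828 and 20.1% ± 0.549 there. In the fetal table its share was 10.5% ± 0.157 in E14.5 XX and 11.21% ± 0.454 in E14.5 XY cells. At E16.5 the type VI share was 12.46% ± 0.635 in XX and 14.55% ± 0.919 in XY cells. The fetal and uterine libraries came from different kits, and differences between the 2 tables were not tested.

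Per length (mean CPM per kb of the coding transcript), Col3a1, Col1a1 and Col1a2 were the 3 highest collagens in every fetal group, at 2421, 2273 and 2170 in E14.5 XX cells. At E16.5 the order in XX was Col1a1, Col1a2, Col3a1 with 3783, 3582 and 3136, and XY had 2834, 2967 and 2983. Col6a2 and Col6a1 followed in all 4 groups, with 562 and 488 in E14.5 XX. In uterine Amhr2+ cells Col6a2 ranked just below Col3a1 at 1215, above Col1a2 at 993. The lowest chain per length among the 42 tested was Col28a1 in each fetal group, at 0.0718 in E14.5 XX. Differences in level between genes were not tested.

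Stretches upstream of 4 collagen genes are printed because the results below turn on these genes and because pairs or runs of them lie side by side. Col4a3 and Col4a4 start head to head on chromosome 1 with 126 bases between the starts given in the tables. Col6a6, Col6a5 and Col6a4 lie in a row on the minus strand of chromosome 9 (105687809 to 105828160, 105856078 to 105960643 and 105990478 to 106096783, mm10), with 27917 and 29834 bases between them. Sequences are RefSeq promoter windows (GRCm38.p6), cut to bases outside every GENCODE vM21 exon and written 5′ to 3′ on the gene's strand. Capitals mark the CCAAT box (letters CCAAT) or, on either strand, the GC box whose letters are GGGCGG.
Col4a4, chr1:82586850-82586920, minus strand: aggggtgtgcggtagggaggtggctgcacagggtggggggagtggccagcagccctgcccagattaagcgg
Col6a5, chr9:105960644-105960893, minus strand: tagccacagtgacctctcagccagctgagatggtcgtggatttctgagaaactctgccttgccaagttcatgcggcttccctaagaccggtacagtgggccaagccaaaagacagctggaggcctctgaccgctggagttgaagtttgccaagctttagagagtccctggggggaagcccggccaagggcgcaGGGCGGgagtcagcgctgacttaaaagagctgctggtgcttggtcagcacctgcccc
Col6a6, chr9:105828161-105828335, minus strand: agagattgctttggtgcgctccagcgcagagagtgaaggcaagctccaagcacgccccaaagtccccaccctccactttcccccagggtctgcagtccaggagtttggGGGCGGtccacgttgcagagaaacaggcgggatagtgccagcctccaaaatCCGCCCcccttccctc
Col25a1, chr3:130180595-130180844, plus strand: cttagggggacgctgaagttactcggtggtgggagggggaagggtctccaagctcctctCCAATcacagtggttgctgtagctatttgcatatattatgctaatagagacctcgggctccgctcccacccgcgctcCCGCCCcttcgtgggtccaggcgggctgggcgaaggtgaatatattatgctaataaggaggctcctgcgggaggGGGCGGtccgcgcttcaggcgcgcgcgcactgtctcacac

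The Col4a4 stretch holds neither motif, Col6a5 holds 1 GC box, Col6a6 holds 2, and Col25a1 holds 1 CCAAT box and 2 GC boxes. Promoter windows of 300 bases were found for 35 of the 44 collagens. GGGCGG stood in 22 of the 35 (62.9%), against 35.9% of 27025 windows of all genes, and CCAAT in 12 (34.3%), against 37.9%. TATAAA stood in 5 (14.3%), against 14.2%, and the GLI-type letters GACCACCCA in 0, against 0.244%.

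Accessible chromatin was deposited as 1 list of 71040 peaks for all 8 ATAC-seq samples (transposase-accessible chromatin) of fetal Gli1+ cells, so groups could not be compared in it. A peak lay within 1 kb of the start of 34 of the 44 collagens (77.3%, 95% exact interval 62.2 to 88.5), against 79.0% of 17842 genes tested in the fetal table. The 10 without one were Col4a6, Col7a1, Col9a1, Col9a2, Col9a3, Col10a1, Col11a2, Col17a1, Col20a1 and Col28a1. Of these, Col9a2 and Col7a1 were read at 354 to 898 and 318 to 890.4 CPM in the fetal libraries. A single peak of 365 bases (chr1:82586784-82587148) covered both starts of Col4a3 and Col4a4, and one of 631 bases covered those of Col4a1 and Col4a2, whose annotated spans overlap by 22 bases. The spans of the collagens held 5.76 peaks per 100 kb, against 4.52 for the tested genes.

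Fewer collagens differed between the sexes at E14.5 than at E16.5. Of 42 collagens 8 (19.05%) passed the test at adjusted p under 0.05, against 6.28% of all 17858 genes tested. Of the 8, 1 was higher in XX (2.59% of all genes) and 7 were lower (3.69% of all genes). Those lower in XX were Col4a4, Col4a3, Col8a1, Col23a1, Col18a1, Col12a1 and Col28a1, and Col25a1 was higher. None of the 11 fibrillar and none of the 6 type VI chains passed. Col6a6 and Col7a1 were just short of the threshold (log2 -0.37 ± 0.11 and -0.55 ± 0.16, adjusted p = 0.0635 and 0.0673), with groups that did not overlap. Both passed in a fit of the 6 E14.5 libraries alone (adjusted p = 0.00815 and 0.0022) and with DESeq2 (0.0253 and 0.00496). Col6a5 (log2 -0.28 ± 0.11, adjusted p = 0.170) passed without XY replicate 2 (adjusted p = 0.045). Col4a2 (log2 -0.17 ± 0.06, adjusted p = 0.117) passed with DESeq2 (adjusted p = 0.0374). Col15a1 was higher in XX but missed the threshold (log2 0.31 ± 0.10, adjusted p = 0.0846), with groups that did not overlap. It passed with the 6 E14.5 libraries alone and with DESeq2 (adjusted p = 0.0236 and 0.0387). The median log2 difference was 0.07 over the collagens and -0.01 over all genes tested. Without the E14.5 XX library of replicate 3, which stood apart in globins, 7 passed, 6 of them lower. Smooth muscle markers differed here too, with 3 of 5 lower in XX and none higher, and endothelial markers with 2 of 6 higher (sums of 114.7 to 125.8 CPM in XX and 102.7 to 116.6 in XY). Epithelial markers summed to 28.99 to 33.13 CPM in XX and 44.02 to 50.9 in XY libraries, with 1 of 6 lower in XX. Mesothelial markers summed to 32.87 to 40.81 and 44.64 to 53.81 CPM, and 0 of 4 passed. Of the mesenchyme markers Pdgfrb was higher and Gli1 lower in XX (log2 0.34 and -0.31), and of the cartilage markers Cnmd was lower (log2 -2.34). Their part was not tested.

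At E16.5 the sexes differed in 34 of 42 collagens (27.3% of all genes did), 17 higher in XX (13.2% of all genes) and 17 lower (14.1%). This fit did not pair libraries. With a replicate block, which matches same-numbered libraries, 36 passed, 18 higher and 18 lower, against 33.0% of all genes. All 6 type IV chains and both hexagonal chains tested were lower in XX cells, while 7 fibrillar chains and the long type VI chains Col6a4, Col6a5 and Col6a6 were higher. The median log2 difference was 0.08, against 0.01 over all genes. Smooth muscle markers moved with these differences: 5 genes (Acta2, Myh11, Cnn1, Des and Actg2) summed to 462 to 563 CPM in XX and 1708 to 2879 in XY libraries, with 4 of 5 lower in XX, none higher and none at or under the floor. Of 6 endothelial markers 2 were higher and 2 lower, with sums of 65.0 to 78.4 and 82.2 to 91.8 CPM. Of 6 epithelial markers 1 was lower in XX (21.45 to 30.68 against 31.67 to 39.81 CPM). Of 4 mesothelial markers 2 were lower in XX (17.1 to 39.3 against 38.6 to 52.1 CPM), and of 4 immune markers 2 were higher (26.3 to 67.8 against 11.6 to 45.4 CPM). The mesenchyme markers differed too: Gli1, Tcf21 and Pdgfra were lower in XX (log2 -2.04, -1.18 and -0.86, adjusted p = 3.53e-11, 0.00110 and 6.86e-07) and Pdgfrb was higher (log2 0.63, adjusted p = 2.05e-06). Their sums were 1999 to 2119 CPM in XX and 2663 to 2882 in XY libraries, with no overlap. The part of these cells in the collagen differences was not tested.

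**Figure D1:**
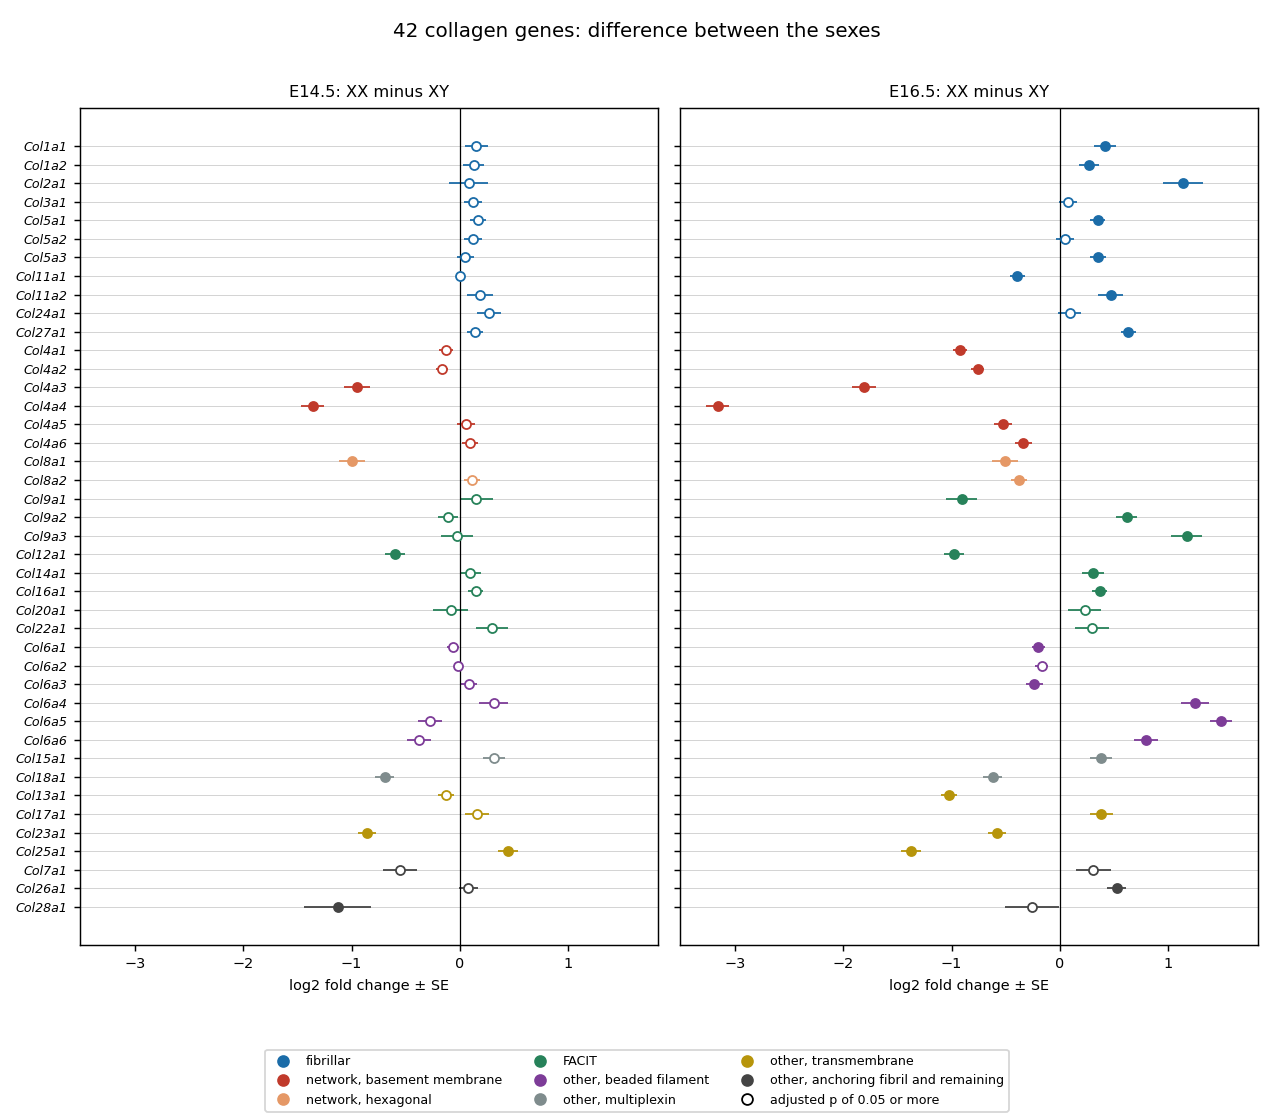
Difference between XX and XY Gli1+ cells for each of 42 collagen genes (log2 fold change ± SE on the x axis, genes on the y axis, coloured by family; open circles did not pass the test, and no error bar is drawn within 0.02 of 0). At E14.5 8 genes passed, and at E16.5 34 did, with all 6 type IV chains lower in XX.

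With age the collagens rose more often than they fell. In XX cells 33 of 42 changed between E14.5 and E16.5 (39.6% of all genes), 26 up (21.0%) and 7 down (18.6%), with a median log2 change of 0.33 against 0.00 over all genes. In XY cells 35 changed (23.3% of all genes), 27 up (13.1%) and 8 down (10.2%), with a median of 0.48 against -0.01. In both sexes 20 genes (47.6%) rose, against 8.72% of all genes tested, among them all 6 type VI chains, 7 fibrillar chains and 5 FACITs. Of the 20, Col24a1 and Col4a6 lost the call in XX, and Col5a1 that in XY, under at least 1 alternative. XX and XY libraries were fitted together, and same-numbered ones deviated together at E16.5 (r = 0.28, 0.11 and 0.40, against -0.34 to 0.11 for different numbers). The sexes are thus not independent tests of the rise. Col8a1, Col13a1, Col18a1 and Col22a1 fell in both (5.96% of all genes did), and Col4a4, Col25a1 and Col27a1 moved in opposite directions (1.06%). Smooth muscle markers rose as well, 3 of 5 in XX and 5 of 5 in XY, and their summed level at E14.5 was 297 to 321 CPM in XX and 598 to 882 CPM in XY libraries. Of the endothelial markers 4 of 6 fell in XX, and in XY 2 rose and 2 fell. Of the 5 mesenchyme markers 1 rose and 3 fell in XX, and 2 rose and 1 fell in XY. The part of these cells in the collagen changes was not tested.

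**Figure D2:**
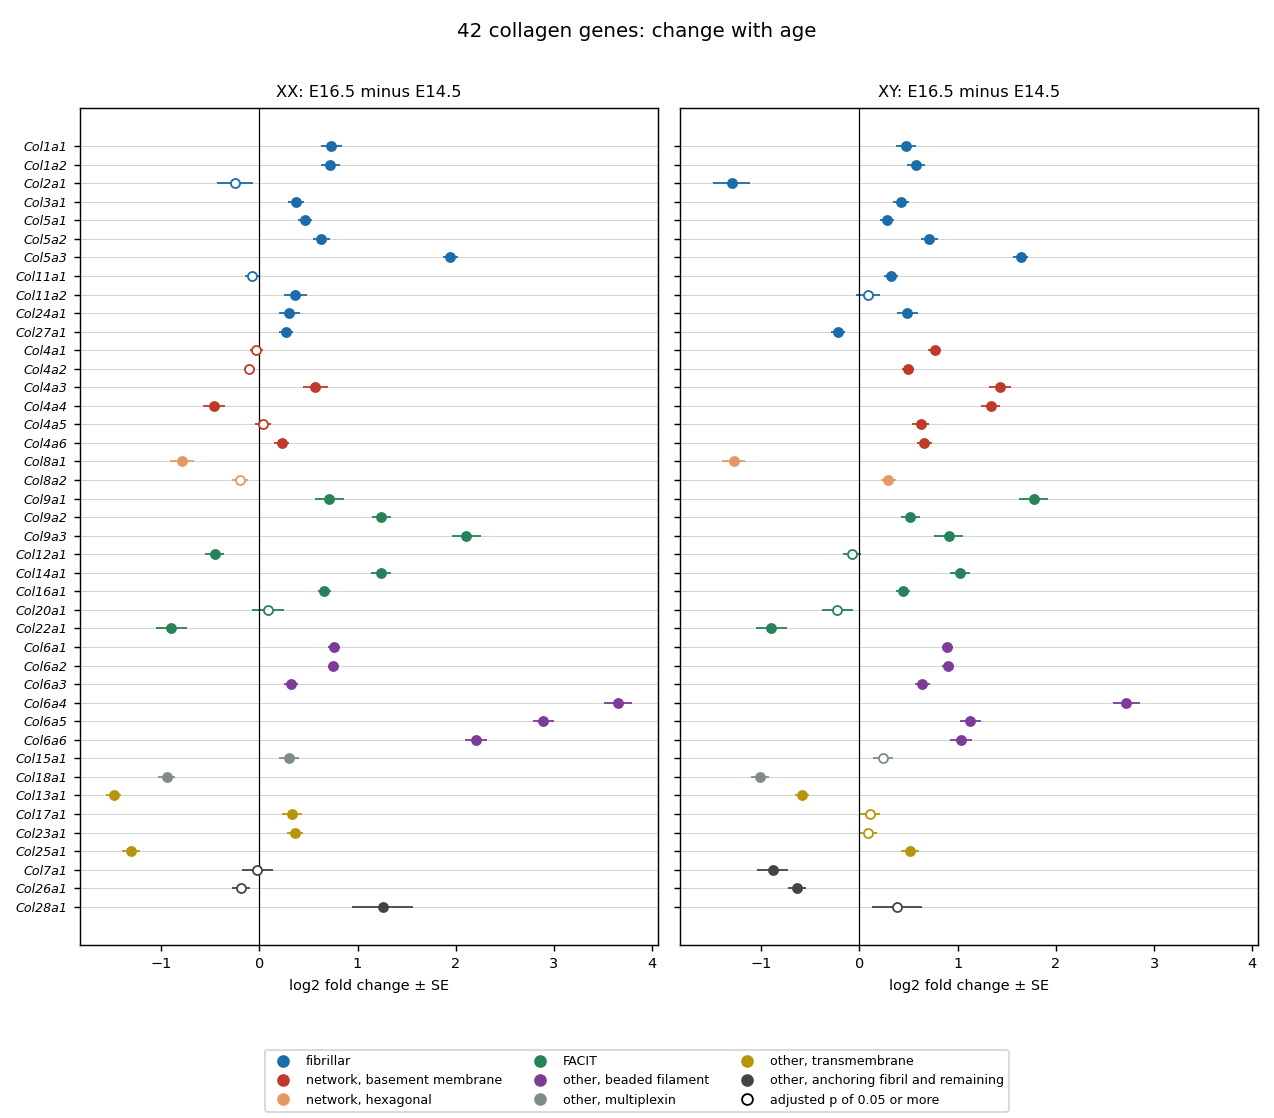
Change from E14.5 to E16.5 for each of 42 collagen genes in XX (left) and XY (right) Gli1+ cells (log2 fold change ± SE on the x axis, genes by family on the y axis, open circles did not pass the test). The 6 type VI chains rose in both sexes, and the 6 type IV chains rose together in XY.

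The sex difference itself changed with age for 20 of 42 collagens (interaction term; 10.0% of all genes), 9 towards XX (4.66%) and 11 towards XY (5.36%). All 6 type IV chains were among the 11 (Col4a6 missed the threshold without E14.5 XX replicate 3, adjusted p = 0.0546), and Col6a4, Col6a5 and Col6a6 were among the 9. With a replicate block the count was 25, 12 towards XX and 13 towards XY: Col1a1, Col5a3 and Col8a1 passed towards XX (adjusted p = 0.0366, 0.0454 and 0.00649) and Col6a3 and Col12a1 towards XY (0.0366 and 0.0193). Over all genes 2592 of 17858 passed with the block, against 1790 without it. The median interaction was 0.11 over the collagens and 0.02 over all genes. Of the mesenchyme markers Gli1, Tcf21 and Pdgfra had interactions towards XY (log2 -1.73, -1.03 and -0.81), and of the smooth muscle markers 2 of 5 did. Their part was not tested.

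In the uterus 28 of 42 collagens differed between the populations (23.9% of all 16195 genes tested), 24 lower in Amhr2+ than in Gli1+ cells (13.7%) and 4 higher (10.1%). Lower were 9 of 11 fibrillar chains, 5 of 8 FACITs and 5 of 6 type VI chains. None of these families had a member called higher in this fit, though the type VI chain Col6a6 passed as higher under some alternatives. The median log2 difference was -0.54, against 0.00 over all genes. The 4 higher were Col8a1, Col7a1, Col4a5 and Col26a1. Without the Amhr2+ library of replicate 1 only 1 of them passed, and without the Gli1+ library of replicate 3 only 2 did. The epithelial markers summed to 71.0 to 72.9 CPM in Amhr2+ and 30.6 to 42.5 in Gli1+ libraries, with 4 of 6 higher in Amhr2+ cells. The 6 cartilage markers (Acan, Matn1, Matn3, Hapln1, Cnmd and Sox9, with Matn1 at or under the floor) summed to 3.56 to 5.07 and 23.4 to 33.6 CPM, with 3 of the 4 tested lower. Smooth muscle markers summed to 858 to 1382 CPM in Amhr2+ and 1754 to 1822 CPM in Gli1+ libraries, with 2 of 5 lower, and endothelial markers to 24.0 to 29.8 and 37.2 to 45.2 CPM, with 3 of 6 lower. Mesenchyme markers summed to 1790 to 1853 CPM in Amhr2+ and 2062 to 2124 in Gli1+ libraries, with 3 of 5 lower. Their part in the collagen differences was not tested.

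**Figure D3:**
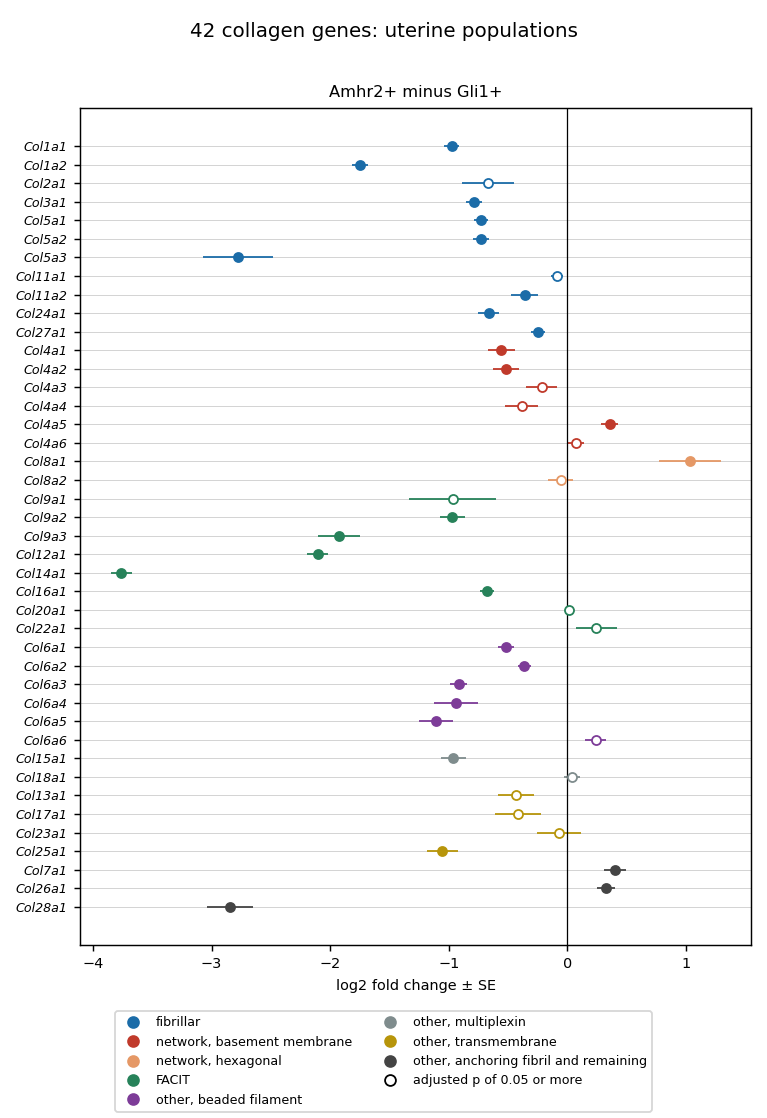
Difference between uterine Amhr2+ and Gli1+ cells for each of 42 collagen genes (log2 fold change ± SE on the x axis, genes by family on the y axis, open circles did not pass the test). Col14a1, Col28a1 and Col5a3 lie farthest to the left, and 4 genes passed on the right.

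The 2 chains of type I collagen were among the most abundant transcripts of all libraries. Col1a1, the pro-alpha1 chain, had 13910, 12780 and 13740 CPM in E14.5 XX, 12620, 10950 and 12780 in E14.5 XY, 24000, 23690 and 19610 in E16.5 XX and 18630, 17510 and 14270 in E16.5 XY libraries. The E14.5 groups overlapped, and every E16.5 library lay above every E14.5 library. Col1a1 rose 1.67-fold in XX (log2 0.74 ± 0.10 SE, adjusted p = 5.01e-05) and 1.39-fold in XY (log2 0.47 ± 0.10, adjusted p = 0.00337). At E16.5 it was higher in XX (log2 0.42 ± 0.10, adjusted p = 0.00678), and the groups did not overlap. Col1a2, the pro-alpha2 chain, had 11890, 11190 and 11740 CPM in E14.5 XX, 11170, 9761 and 10960 in E14.5 XY, 20720, 19330 and 17420 in E16.5 XX and 17950, 15830 and 13830 in E16.5 XY libraries. It rose in XX (log2 0.72 ± 0.09, adjusted p = 2.40e-05) and in XY (log2 0.58 ± 0.09, adjusted p = 2.86e-04). Its sex difference at E16.5 (log2 0.27 ± 0.09, adjusted p = 0.0424) came from overlapping groups. That call was lost without any 1 of XX replicates 1 and 2 and XY replicates 2 and 3, with adjusted p from 0.0876 (without XY replicate 2) to 0.228 (without XY replicate 3), and with library size alone (adjusted p = 0.0703).

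In the uterus the type I chains parted. Col1a1 had 11490, 10690 and 10640 CPM in Amhr2+ and 21250, 22810 and 20530 in Gli1+ libraries, 1.97-fold lower in Amhr2+ cells (log2 -0.98 ± 0.06, adjusted p = 3.05e-05). Col1a2 had 5380, 5167 and 5379 CPM in Amhr2+ and 17400, 19550 and 16560 in Gli1+ libraries, 3.36-fold lower (log2 -1.75 ± 0.07, adjusted p = 4.95e-06). The groups did not overlap for either chain. Per kb of transcript, the ratio of Col1a1 to Col1a2 was 1.93, 1.87 and 1.78 in the Amhr2+ libraries and 1.10, 1.05 and 1.12 in the Gli1+ libraries. In the fetal groups, read from another kit, it ran from 0.931 to 0.998 in E16.5 XY to 1.01 to 1.10 in E16.5 XX. The Amhr2+ ratios stood above those of all other 15 libraries. The span of Col1a2 overlaps that of RP23-56M2.7 on the same strand, so some of its reads may have been assigned otherwise or to neither gene. In all, 24 of the 44 spans overlap another gene of the tables, mostly unnamed transcripts.

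**Figure D4:**
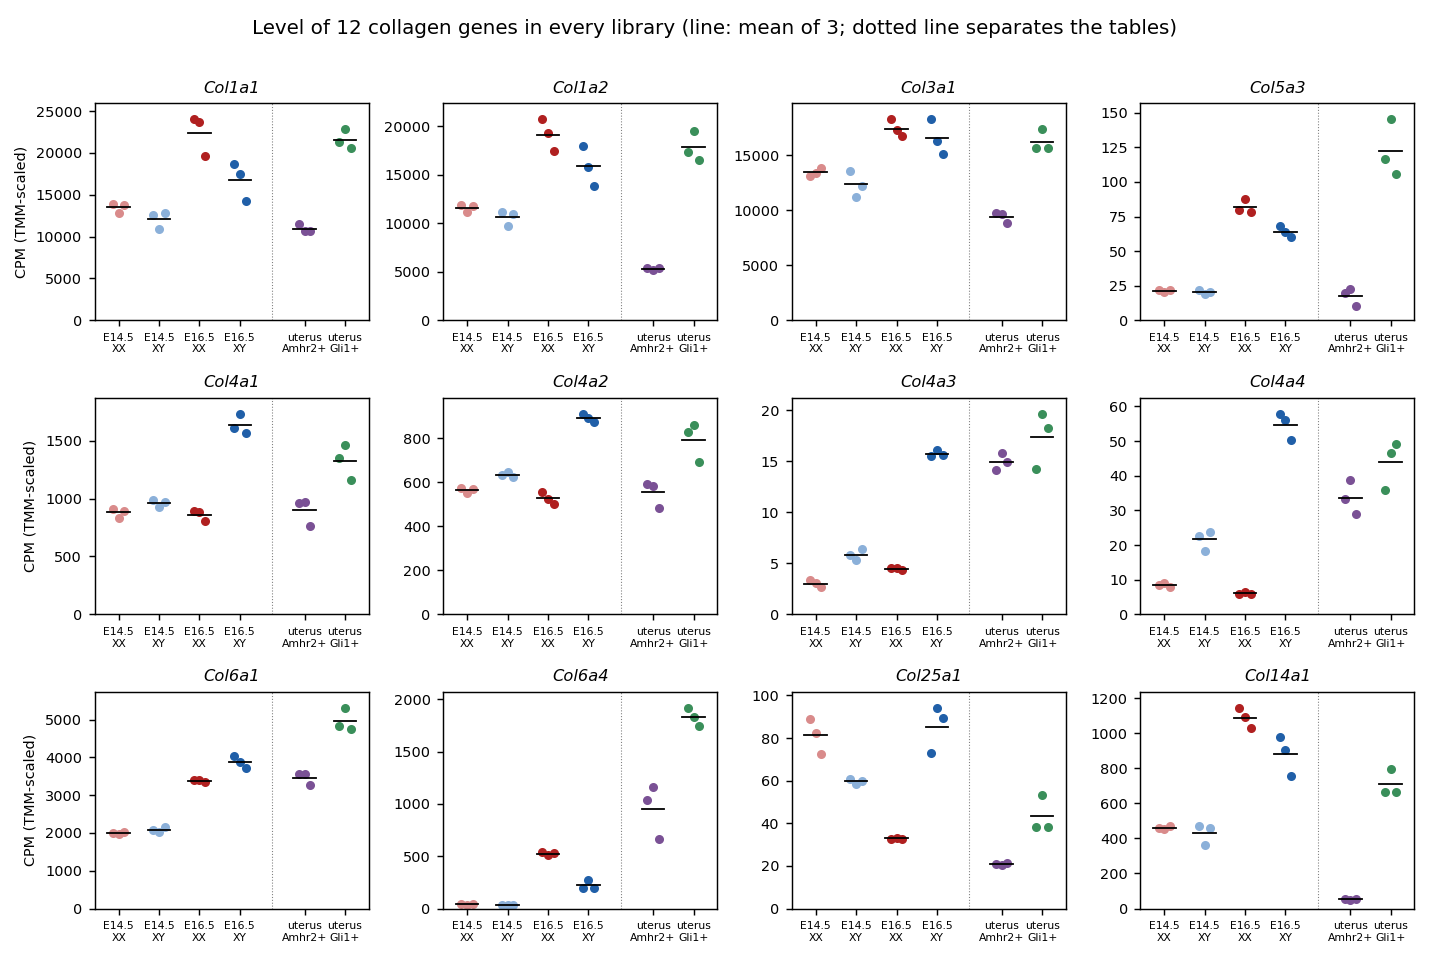
CPM of 12 collagen genes in all 18 libraries (y axis from 0; points are libraries, lines are means of 3; the dotted line separates the fetal from the uterine table, which were normalised separately). Col1a2 and Col14a1 are low in the Amhr2+ libraries, Col4a4 is high in E16.5 XY, and Col25a1 is low in E16.5 XX.

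Col3a1, the only chain of type III collagen, had 13130, 13400 and 13870 CPM in E14.5 XX and 13620, 11230 and 12260 in E14.5 XY libraries. At E16.5 it had 18280, 17280 and 16770 in XX and 18280, 16340 and 15170 in XY libraries, and the sexes overlapped at both ages. It rose in XX (log2 0.37 ± 0.08, adjusted p = 0.00252) and in XY (log2 0.42 ± 0.08, adjusted p = 0.00153). Uterine Amhr2+ libraries had 9752, 9650 and 8817 and Gli1+ libraries 15720, 17380 and 15690 CPM, a log2 difference of -0.79 ± 0.07 (adjusted p = 1.27e-04).

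Type V chains join type I fibrils and limit their width. Col5a3, the least abundant of them, had 21.9, 20.3 and 21.6 CPM in E14.5 XX and 22.1, 19.1 and 20.5 in E14.5 XY libraries. It reached 79.7, 87.4 and 78.4 in E16.5 XX and 67.9, 63.7 and 60.4 in E16.5 XY, a rise of 3.85-fold (log2 1.95 ± 0.08, adjusted p = 1.14e-10) and 3.12-fold (log2 1.64 ± 0.08, adjusted p = 8.79e-10). In the uterus it had 20.0, 22.8 and 10.5 CPM in Amhr2+ and 117, 145 and 106 in Gli1+ libraries, with Amhr2+ replicate 3 the lowest. It was 6.86-fold lower in Amhr2+ cells (log2 -2.78 ± 0.29, adjusted p = 0.00162). Col5a1 and Col5a2, at 1798 to 3088 and 1126 to 2271 CPM over the fetal libraries, rose as well, with log2 changes of 0.46 and 0.63 in XX and 0.28 and 0.71 in XY cells. Both were lower in uterine Amhr2+ cells (log2 -0.73 and -0.73, adjusted p = 1.33e-04 and 2.00e-04).

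Col2a1, the main collagen of cartilage, was scarce in these cells. It had 4.44, 3.58 and 4.53 CPM in E14.5 XX, 3.58, 4.08 and 4.17 in E14.5 XY, 4.24, 3.45 and 2.90 in E16.5 XX and 1.99, 1.55 and 1.32 in E16.5 XY libraries. The E16.5 XY libraries were the lowest of the 12, with no overlap, and Col2a1 fell in XY (log2 -1.30 ± 0.19, adjusted p = 9.44e-05). At E16.5 it was higher in XX (log2 1.14 ± 0.19, adjusted p = 2.88e-04). Its interaction (log2 1.05 ± 0.26, adjusted p = 0.0154) was lost without E16.5 XX replicate 1 (adjusted p = 0.0516). The 6 cartilage markers summed to 19.7 to 22.2 CPM in XX and 57.9 to 64.0 in XY libraries at this age, of which Cnmd made up 8.18 to 8.66 and 40.9 to 48.6 CPM. Without Cnmd the sums were 11.01 to 13.99 and 15.38 to 17.03 CPM. Cnmd and Hapln1 were lower in XX (log2 -2.42 ± 0.11 and -0.55 ± 0.12, adjusted p = 4.40e-10 and 0.00316), and Sox9 and Acan missed the threshold (log2 0.06 ± 0.18 and -0.15 ± 0.31). Their part was not tested.

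The 4 other fibrillar chains are Col11a1, Col11a2, Col24a1 and Col27a1. Col11a1, a chain of thin cartilage fibrils that is also made in other tissues, ran from 242 to 365 CPM in the fetal libraries and was lower in XX at E16.5 (log2 -0.39 ± 0.07, adjusted p = 5.61e-04). It rose in XY (log2 0.32 ± 0.07, adjusted p = 0.00313), while its change in XX was log2 -0.07 ± 0.07 (adjusted p = 0.452). Col27a1, a fibrillar chain of cartilage, had 410.2, 409 and 392 CPM in E16.5 XX and 273, 271 and 237 in E16.5 XY libraries and was higher in XX (log2 0.63 ± 0.07, adjusted p = 6.45e-06), the largest sex difference of a fibrillar chain at that age after Col2a1. Col27a1 rose in XX (log2 0.28 ± 0.07, adjusted p = 0.00646) and fell in XY (log2 -0.22 ± 0.07, adjusted p = 0.0392). Its fall was lost without E14.5 XY replicate 2 or 3 or E16.5 XY replicate 3, with adjusted p up to 0.196. Col11a2 and Col24a1 were scarce, at 10.5 to 18.1 and 10.04 to 17.1 CPM. Col11a2 was higher in XX at E16.5 (log2 0.47 ± 0.12, adjusted p = 0.00750), and it rose in XX (log2 0.37 ± 0.12, adjusted p = 0.0240). Col24a1 rose in XX (log2 0.30 ± 0.11, adjusted p = 0.0330) and XY (log2 0.49 ± 0.11, adjusted p = 0.00324). The Col11a2 rise in XX was lost with a replicate block (adjusted p = 0.0501). Leaving out replicate 1 or 2 of E14.5 or E16.5 XX also lost it, with adjusted p up to 0.0905. The Col24a1 rise in XX was lost with library size alone (adjusted p = 0.0803). Without E14.5 XX replicate 2 or 3 or E16.5 XX replicate 1 or 2 it was lost too, with adjusted p up to 0.122.

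Basement membrane collagen differed between the sexes at E16.5 in 1 direction. Col4a1, with Col4a2 the common pair of chains in basement membranes, had 909, 836 and 893 CPM in E14.5 XX and 983, 927 and 973 in E14.5 XY libraries. At E16.5 it had 891, 886 and 807 in XX and 1605, 1733 and 1567 in XY libraries, 1.90-fold lower in XX (log2 -0.92 ± 0.07, adjusted p = 5.35e-08). The XY libraries at E16.5 stood above all others, and XX libraries stayed within the E14.5 XX range or just below it. Col4a2 had 576, 550.3 and 572 CPM in E14.5 XX, 635, 646 and 623 in E14.5 XY, 555, 527 and 502 in E16.5 XX and 913, 893 and 877 in E16.5 XY libraries. It was lower in XX at E16.5 (log2 -0.76 ± 0.06, adjusted p = 1.02e-07). With age Col4a1 and Col4a2 rose in XY (log2 0.77 ± 0.07 and 0.49 ± 0.06, adjusted p = 4.81e-07 and 1.22e-05). So did the smooth muscle markers, all 5 of them, and in XX 3 of the 5 rose. The part of smooth muscle cells was not tested. In XX the chains' log2 changes were -0.03 ± 0.07 and -0.10 ± 0.06 (adjusted p = 0.746 and 0.182). The interaction was -0.80 ± 0.09 for Col4a1 and -0.60 ± 0.08 for Col4a2 (adjusted p = 4.64e-05 and 1.91e-04).

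Col4a3 and Col4a4, chains known from the kidney's filtration membrane, were far lower in level, and at E16.5 they were the collagens with the largest sex differences. Col4a4 had 8.38, 8.92 and 8.04 CPM in E14.5 XX and 22.7, 18.4 and 23.9 in E14.5 XY libraries, 2.56-fold lower in XX (log2 -1.36 ± 0.10, adjusted p = 1.08e-06). At E16.5 it had 6.03, 6.55 and 5.79 in XX and 57.9, 56.0 and 50.3 in XY libraries, 8.94-fold lower in XX (log2 -3.16 ± 0.10, adjusted p = 3.31e-11). The groups did not overlap at either age. Col4a4 rose in XY (log2 1.34 ± 0.10, adjusted p = 7.33e-08) and fell in XX (log2 -0.46 ± 0.11, adjusted p = 0.00364). Col4a3, its head-to-head neighbour under the same peak, had 3.37, 3.03 and 2.64 CPM in E14.5 XX and 5.81, 5.28 and 6.39 in E14.5 XY libraries. At E16.5 it had 4.58, 4.51 and 4.37 in XX and 15.5, 16.1 and 15.6 in XY libraries. It was lower in XX at E14.5 (log2 -0.95 ± 0.12, adjusted p = 1.83e-04) and at E16.5 (log2 -1.81 ± 0.11, adjusted p = 1.04e-08). Unlike Col4a4 it rose in both sexes, by log2 0.57 ± 0.12 in XX and 1.43 ± 0.11 in XY (adjusted p = 0.00198 and 1.39e-07). Interactions were -1.80 ± 0.15 for Col4a4 and -0.86 ± 0.16 for Col4a3 (adjusted p = 1.07e-06 and 0.00284).

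The ratio of Col4a3 to Col4a4 per kb was 0.898, 0.813 and 0.893 in E16.5 XX libraries, above every other library of either table. It was 0.389 to 0.475 in E14.5 XX, 0.302 to 0.339 in E14.5 XY and 0.317 to 0.365 in E16.5 XY libraries. The chains that start head to head on the X chromosome, Col4a5 and Col4a6 (1308 bases apart), had 464 to 579 and 212 to 254 CPM over the E14.5 libraries. Both rose in XY (log2 0.62 and 0.66), and both were lower in XX at E16.5 (log2 -0.53 ± 0.08 and -0.34 ± 0.08, adjusted p = 1.99e-04 and 0.00355). Per kb, Col4a5 was read at 1.85 to 2.05 times Col4a6 in E16.5 XX and 2.20 to 2.25 times in E16.5 XY libraries.

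Uterine type IV chains differed less. Col4a1 had 963, 968 and 767 CPM in Amhr2+ and 1349, 1460 and 1163 in Gli1+ libraries (log2 -0.56 ± 0.11, adjusted p = 0.00986). Col4a2 had 595, 583 and 486 and 828, 862 and 692 (log2 -0.52 ± 0.11, adjusted p = 0.00969), and the groups did not overlap for either. Col4a5 went the other way, with 478, 495 and 429 CPM in Amhr2+ and 374, 357 and 366 in Gli1+ libraries (log2 0.35 ± 0.07, adjusted p = 0.00774). Col4a3 and Col4a4 overlapped between the populations, at 14.2 to 19.7 and 28.9 to 49.2 CPM over the 6 libraries (adjusted p = 0.254 and 0.0827).

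Col8a1 and Col8a2 form the hexagonal lattice of type VIII. Col8a1 had 21.4, 16.01 and 16.8 CPM in E14.5 XX, 41.0, 31.6 and 36.0 in E14.5 XY, 11.7, 10.00 and 9.73 in E16.5 XX and 15.3, 15.01 and 14.2 in E16.5 XY libraries. It was lower in XX at E14.5 (log2 -0.996 ± 0.117, adjusted p = 8.01e-05) and fell with age in XX (log2 -0.79 ± 0.12, adjusted p = 1.12e-04) and XY (log2 -1.28 ± 0.12, adjusted p = 8.11e-07). None of the 4 groups overlapped another. In the uterus it was higher in Amhr2+ libraries, at 23.1, 25.1 and 12.1 against 10.8, 10.2 and 8.59 CPM (log2 1.03 ± 0.26, adjusted p = 0.0270). That call was lost without any 1 of 5 libraries and without the filter on low counts (adjusted p = 0.0637 without Gli1+ replicate 1, 0.0951 without the filter). Col8a2 was the more abundant chain, at 263 to 399 CPM over the fetal libraries, and was lower in XX at E16.5 (log2 -0.38 ± 0.08, adjusted p = 0.00171).

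Type VI collagen rose with age in both sexes, and its long alternative chains rose most. Col6a1, present in every type VI molecule, had 2010, 1966 and 2021 CPM in E14.5 XX, 2081, 2015 and 2165 in E14.5 XY, 3408, 3391 and 3351 in E16.5 XX and 4036, 3883 and 3730 in E16.5 XY libraries. Its log2 rise was 0.76 ± 0.06 in XX and 0.90 ± 0.06 in XY (adjusted p = 1.13e-07 and 3.54e-08). At E16.5 it was slightly lower in XX (log2 -0.20 ± 0.06, adjusted p = 0.0203). The call was lost without XX replicate 3 (adjusted p = 0.0518) or XY replicate 1 (adjusted p = 0.0596). Col6a2 missed the threshold there (log2 -0.17 ± 0.06, adjusted p = 0.0524) and passed with a replicate block (adjusted p = 0.0363). In the uterus Col6a1 had 3553, 3573 and 3265 CPM in Amhr2+ and 4842, 5316 and 4746 in Gli1+ libraries (log2 -0.52 ± 0.07, adjusted p = 0.00110).

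Col6a4, Col6a5 and Col6a6 are the neighbouring genes of chains that can take the place of Col6a3. Col6a4 had 42.6, 37.0 and 45.3 CPM in E14.5 XX and 30.0, 37.0 and 33.5 in E14.5 XY libraries, whose ranges met at 37.0 CPM. At E16.5 it had 536, 508 and 528 in XX and 193, 276 and 193 in XY libraries. It rose 12.6-fold in XX (log2 3.65 ± 0.14, adjusted p = 7.28e-10) and 6.58-fold in XY (log2 2.72 ± 0.14, adjusted p = 1.31e-08), the largest rise of a collagen in either sex. Col6a5 had 18.2, 18.2 and 20.6 CPM in E14.5 XX, 24.2, 19.3 and 25.4 in E14.5 XY, 132, 154 and 137 in E16.5 XX and 56.0, 49.3 and 45.6 in E16.5 XY libraries. Its rise was 7.42-fold in XX (log2 2.89 ± 0.11, adjusted p = 8.93e-11) and log2 1.13 ± 0.10 in XY (adjusted p = 9.93e-07). Col6a6 had 208, 195 and 230 CPM in E14.5 XX, 287, 274 and 259 in E14.5 XY, 1008, 1047 and 866 in E16.5 XX and 529.6, 673 and 479 in E16.5 XY libraries. It rose by log2 2.21 ± 0.12 in XX (adjusted p = 2.77e-09) and 1.04 ± 0.11 in XY (adjusted p = 6.98e-06).

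At E16.5 the groups did not overlap for any of the 3, all higher in XX: log2 1.25 ± 0.13 for Col6a4, 1.49 ± 0.10 for Col6a5 and 0.80 ± 0.11 for Col6a6 (adjusted p = 7.19e-06, 3.60e-08 and 7.18e-05). Their interactions were 0.94 ± 0.18, 1.76 ± 0.15 and 1.17 ± 0.16 (adjusted p = 0.00458, 1.66e-06 and 1.89e-04). Col6a3 itself was lower in XX at E16.5 (log2 -0.24 ± 0.07, adjusted p = 0.0280), a call lost without XX replicate 2 or 3 or XY replicate 2, with adjusted p up to 0.0814. Per kb, the level of Col6a4 relative to Col6a3 was 0.0361 to 0.0456 in E14.5 XX, 0.0283 to 0.0438 in E14.5 XY, 0.405 to 0.430 in E16.5 XX and 0.129 to 0.181 in E16.5 XY libraries. For Col6a6 the same ratio was 0.160 to 0.194, 0.228 to 0.272, 0.592 to 0.700 and 0.284 to 0.370. Col6a5 stayed a minor chain, at no more than 0.0973 of Col6a3 in any library.

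Uterine Col6a4 was lower in Amhr2+ cells, with 1036, 1159 and 668 against 1918, 1833 and 1743 CPM (log2 -0.94 ± 0.19, adjusted p = 0.0119), and this call was lost without the filter on low counts (adjusted p = 0.0767). Amhr2+ replicate 3 was the lowest of the 6 libraries. Col6a6 had 924, 965 and 809.5 and 736, 837 and 714 CPM, with overlap (log2 0.24 ± 0.09, adjusted p = 0.0838). It passed as higher in Amhr2+ cells with a replicate block and with DESeq2 (adjusted p = 0.0216 and 0.0487). So it did with library size alone and without the filter on low counts (0.033 and 0.0308). Without Amhr2+ replicate 3 or Gli1+ replicate 2 it passed too (0.0303 and 0.0408). Relative to Col6a3 per kb, Col6a6 stood at 0.510 to 0.526 in Amhr2+ and 0.215 to 0.257 in Gli1+ libraries, with no overlap.

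**Figure D5:**
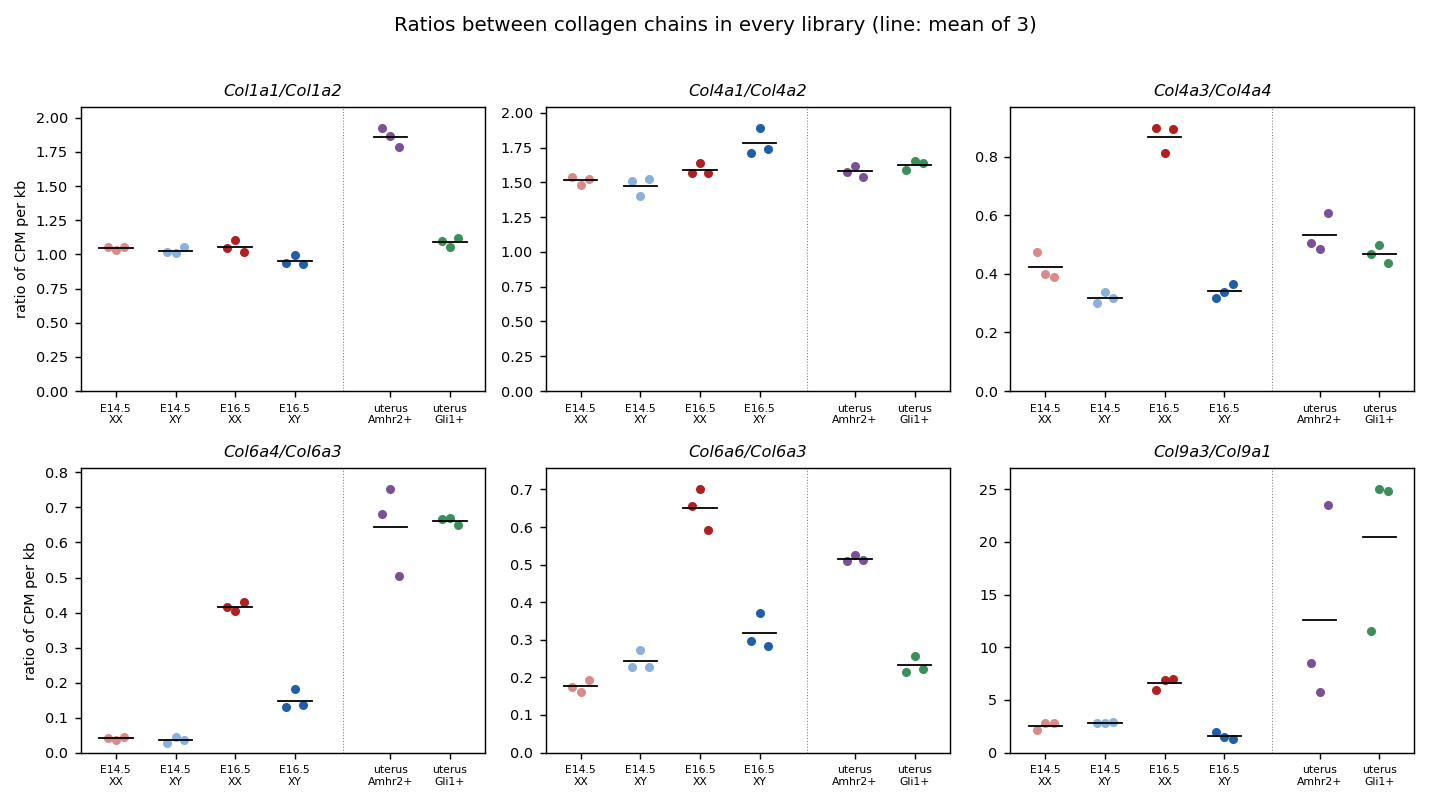
Ratios of CPM per kb between 6 pairs of collagen chains in all 18 libraries (points are libraries, lines are means of 3). Col1a1 to Col1a2 is highest in uterine Amhr2+ libraries (1.78 to 1.93), and Col4a3 to Col4a4 in E16.5 XX libraries (0.813 to 0.898).

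Among the FACITs the 3 chains of type IX, known from cartilage fibrils, all rose with age in both sexes, by unequal amounts. Col9a1 had 17.6, 11.2 and 13.0 CPM in E14.5 XX, 12.1 to 13.1 in E14.5 XY, 24.6, 21.9 and 22.3 in E16.5 XX and 40.0, 51.8 and 37.6 in E16.5 XY libraries, highest in E16.5 XY with no overlap. It rose in XX (log2 0.71 ± 0.15, adjusted p = 0.00168) and in XY (log2 1.77 ± 0.15, adjusted p = 5.97e-07) and was lower in XX at E16.5 (log2 -0.91 ± 0.14, adjusted p = 2.13e-04). Col9a3 had 30.0, 24.7 and 28.6 CPM in E14.5 XX, 27.5, 27.4 and 30.0 in E14.5 XY, 116, 121 and 123 in E16.5 XX and 62.5, 59.3 and 38.1 in E16.5 XY libraries, highest in E16.5 XX. It rose by log2 2.11 ± 0.15 in XX and 0.91 ± 0.15 in XY (adjusted p = 2.64e-07 and 5.31e-04) and was higher in XX at E16.5 (log2 1.17 ± 0.14, adjusted p = 4.60e-05). The interactions had opposite signs, -1.06 ± 0.21 for Col9a1 and 1.20 ± 0.21 for Col9a3 (adjusted p = 0.00363 and 0.00212). Per kb, Col9a3 stood at 5.92 to 6.96 times Col9a1 in E16.5 XX and 1.27 to 1.97 times in E16.5 XY libraries. Col9a2 rose by log2 1.24 ± 0.10 in XX and 0.52 ± 0.10 in XY (adjusted p = 1.02e-07 and 8.74e-04) and was far above both, at 47.9 to 52.5 and 15.3 to 20.6 times Col9a1. In the uterus Col9a3 had 11.7, 9.41 and 14.6 CPM in Amhr2+ and 38.5, 53.5 and 43.5 in Gli1+ libraries (log2 -1.93 ± 0.18, adjusted p = 2.93e-04). Of the cartilage markers, Cnmd was highest in E16.5 XY libraries, as Col9a1 was, and rose with age in both sexes (log2 3.30 in XX and 3.38 in XY). Hapln1 rose in XY (log2 0.36, adjusted p = 0.0402), while Sox9 fell in XX and XY (log2 -0.57 and -0.90, adjusted p = 0.0220 and 0.00146). The part of cartilage cells was not tested.

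Col12a1 and Col14a1 are FACITs that bind type I fibrils. Col12a1 had 884, 892 and 889.9 CPM in E14.5 XX, 1516, 1201 and 1313 in E14.5 XY, 703, 664 and 577 in E16.5 XX and 1258, 1396 and 1181 in E16.5 XY libraries. It was lower in XX at E14.5 (log2 -0.60 ± 0.09, adjusted p = 9.82e-04) and at E16.5 (log2 -0.98 ± 0.09, adjusted p = 9.85e-07), with no overlap at either age. Col14a1 had 462, 452 and 472 and 473, 364 and 458 CPM at E14.5 in XX and XY, and 1145, 1093 and 1027 and 979.8, 907 and 754 at E16.5. It rose by log2 1.24 ± 0.10 in XX and 1.03 ± 0.10 in XY (adjusted p = 1.98e-07 and 1.99e-06). In the uterus it was the collagen that differed most, with 51.7, 51.5 and 53.1 CPM in Amhr2+ and 666, 793 and 663 in Gli1+ libraries. That was 13.6-fold lower in Amhr2+ cells (log2 -3.76 ± 0.09, adjusted p = 2.45e-07). Col12a1 went the same way, with 199.6, 214 and 174 against 796, 856 and 875 CPM (log2 -2.11 ± 0.09, adjusted p = 5.00e-06). Col22a1, a FACIT of tissue junctions, was low throughout the fetal libraries at 1.81 to 5.39 CPM and fell in both sexes (log2 -0.90 ± 0.15 in XX and -0.90 ± 0.16 in XY, adjusted p = 3.27e-04 and 5.27e-04). Col16a1, the most abundant FACIT per length in every group, had 1091 to 1277 CPM over the E14.5 libraries, 1969 to 2032 in E16.5 XX and 1384 to 1683 in E16.5 XY. It rose in XX and XY (log2 0.66 and 0.44) and was higher in XX at E16.5 (log2 0.37 ± 0.07, adjusted p = 0.00106). Col20a1, at 2.34 to 5.51 CPM in all libraries, passed no test.

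The transmembrane collagens, which are anchored in the cell membrane and can be shed, split by age and sex. Col25a1 had 89.1, 82.3 and 72.6 CPM in E14.5 XX and 60.8, 58.3 and 60.05 in E14.5 XY libraries, higher in XX (log2 0.45 ± 0.09, adjusted p = 0.00687). Without E14.5 XX replicate 1, the highest of its group, this missed the threshold (adjusted p = 0.0521). At E16.5 the order was turned, with 32.6, 33.2 and 32.8 in XX and 72.8, 94.2 and 89.2 in XY libraries (log2 -1.38 ± 0.09, adjusted p = 2.32e-08). It fell in XX (log2 -1.31 ± 0.09, adjusted p = 3.55e-08) and rose in XY (log2 0.52 ± 0.09, adjusted p = 5.31e-04). Its interaction was -1.82 ± 0.13 (adjusted p = 3.15e-07), the largest of the collagens tested. Col13a1 had 118, 125 and 119.8 CPM in E14.5 XX, 119.8, 145 and 131 in E14.5 XY, 46.2, 43.4 and 40.2 in E16.5 XX and 88.2, 90.5 and 86.1 in E16.5 XY libraries. It overlapped between the sexes at E14.5, fell in both sexes (log2 -1.48 ± 0.07 in XX and -0.58 ± 0.07 in XY, adjusted p = 1.02e-09 and 2.26e-05), and was lower in XX at E16.5 (log2 -1.03 ± 0.07, adjusted p = 5.35e-08). Its interaction was -0.90 ± 0.10 (adjusted p = 3.70e-05). Col23a1 had 229, 201 and 223 CPM in E14.5 XX and 387, 384 and 409 in E14.5 XY libraries, lower in XX (log2 -0.85 ± 0.08, adjusted p = 1.64e-05). It was lower at E16.5 too (log2 -0.58 ± 0.08, adjusted p = 7.18e-05). Col17a1, the collagen of hemidesmosomes, stood at 6.59 to 9.89 CPM in the fetal libraries and was higher in XX at E16.5 (log2 0.38 ± 0.10, adjusted p = 0.0114). That call was lost without XX replicate 1 or XY replicate 3 (adjusted p = 0.0508 and 0.0553). Col25a1 also was lower in uterine Amhr2+ than Gli1+ libraries, at 20.7, 20.3 and 21.4 against 38.2, 53.1 and 38.3 CPM (log2 -1.05 ± 0.13, adjusted p = 8.60e-04).

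Col18a1, a multiplexin of basement membrane zones whose end fragment is endostatin, had 279, 287 and 279 CPM in E14.5 XX and 490.1, 455 and 421 in E14.5 XY libraries. It was lower in XX (log2 -0.69 ± 0.09, adjusted p = 1.46e-04). At E16.5 it had 148, 161 and 132 in XX and 245, 235 and 198 in XY libraries, and it fell in both sexes (log2 -0.94 ± 0.09 and -1.01 ± 0.09, adjusted p = 7.22e-07 and 4.74e-07). The sexes overlapped at neither age. Col15a1, its relative, went the other way, higher in XX at E16.5 with 252, 259 and 235 against 226, 183 and 164 CPM (log2 0.38 ± 0.10, adjusted p = 0.0103). That call was lost without XX replicate 2 or XY replicate 3 (adjusted p = 0.0529 and 0.0598). In the uterus Col15a1 was lower in Amhr2+ cells (log2 -0.96 ± 0.10, adjusted p = 4.63e-04).

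Of the remaining 3, Col7a1, which builds the anchoring fibrils under epithelia, had 890.4, 769 and 695 CPM in E14.5 XY and 472, 487 and 318 in E16.5 XY libraries, and it fell (log2 -0.88 ± 0.16, adjusted p = 0.00172). In XX it had 562, 511 and 532 and 603, 542 and 438 CPM (adjusted p = 0.929). Its sex difference at E16.5 missed the threshold (log2 0.31 ± 0.16, adjusted p = 0.181) and passed with a replicate block (adjusted p = 0.00309). In the uterus it was higher in Amhr2+ libraries, at 733, 676 and 625 against 532, 554 and 454 CPM (log2 0.40 ± 0.09, adjusted p = 0.0152), and missed the threshold without Amhr2+ replicate 1 (adjusted p = 0.0658). Col26a1, first described in testis and ovary, had 299, 274 and 329.5 CPM in Amhr2+ and 253, 236 and 232 in Gli1+ libraries (log2 0.32 ± 0.08, adjusted p = 0.0193). It missed the threshold without Amhr2+ replicate 1 or Gli1+ replicate 3 (adjusted p = 0.0699 and 0.0548). At E16.5 it was higher in XX (log2 0.52 ± 0.09, adjusted p = 3.95e-04). Col28a1, best known from peripheral nerve, was 7.19-fold lower in Amhr2+ cells, at 1.01, 1.27 and 0.949 against 6.46, 8.54 and 8.35 CPM (log2 -2.85 ± 0.20, adjusted p = 4.61e-05). In E14.5 cells it stood at 0.267 to 0.326 CPM in XX and 0.589 to 0.704 in XY, and its call there (log2 -1.13 ± 0.31, adjusted p = 0.0434) was lost under 8 of 12 alternatives, among them the removal of XX replicate 1, 2 or 3 or XY replicate 2 or 3 (adjusted p up to 0.173).

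Genes that make, process or bind collagen moved with age as well. Of 41 listed genes 40 were tested in each table. In XX cells 25 rose with age (62.5%, against 21.0% of all genes) and 4 fell (18.6% of all genes did), and 11 of the 13 lysyl and prolyl hydroxylases and partners were among those that rose. In XY 15 rose (37.5%, against 13.1%) and 2 fell (10.2% of all genes did). Lox, the lysyl oxidase that cross-links fibrils, had 80.9, 83.8 and 94.6 CPM in E14.5 XX and 308, 282 and 273 in E16.5 XX libraries (log2 1.73 ± 0.09, adjusted p = 2.41e-09). Tll1, a protease that removes propeptides, rose in XX (log2 2.30 ± 0.14) and XY (log2 2.36 ± 0.13), with adjusted p = 8.32e-09 and 5.56e-09. Colgalt2, which glycosylates hydroxylysine, rose from a low level, 0.516 to 0.905 CPM over the E14.5 libraries, with log2 changes of 1.80 ± 0.26 in XX and 2.84 ± 0.25 in XY (adjusted p = 6.20e-05 and 6.50e-07). The receptor gene Itga1 rose by log2 1.94 ± 0.16 in XY and 0.70 ± 0.15 in XX (adjusted p = 4.12e-07 and 0.00262).

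Between the sexes 5 of the 40 were lower in XX at E14.5 (3.69% of all genes were) and none higher (2.59%). They included Tll1 (log2 -0.75 ± 0.15, adjusted p = 0.00587), Lox (log2 -0.59 ± 0.09, adjusted p = 0.00105) and the prolyl hydroxylase subunit P4ha2 (log2 -0.44 ± 0.06, adjusted p = 4.84e-04). At E16.5 9 were higher in XX (13.2% of all genes were) and 10 lower (14.1%). The collagen receptors Itga11 and Itga1 went opposite ways: Itga11 had 33.5, 34.6 and 27.3 CPM in XX and 19.54, 17.2 and 11.3 in XY libraries (log2 1.00 ± 0.16, adjusted p = 3.80e-04), and Itga1 had 19.6, 19.6 and 17.9 and 24.6, 40.5 and 35.9 (log2 -0.82 ± 0.15, adjusted p = 7.43e-04). Loxl4 was lower in XX, at 0.661, 0.665 and 0.733 against 1.70, 1.71 and 1.71 CPM (log2 -1.31 ± 0.19, adjusted p = 8.48e-05). Of the 40, 6 had an interaction (15%, against 10.0% of all genes), 3 in each direction, with the largest for Loxl4, Itga1 and Itga11 (log2 -1.33, -1.24 and 0.85).

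In the uterus 19 of the 40 were lower in Amhr2+ cells (13.7% of all genes were) and 1 was higher (10.1%). Pcolce, which speeds the removal of propeptides, had 92.7, 91.8 and 83.8 CPM in Amhr2+ and 192, 222 and 199 in Gli1+ libraries (log2 -1.19 ± 0.07, adjusted p = 3.05e-05). Adamts14, a propeptide-cutting protease, was lower (log2 -1.33 ± 0.22, adjusted p = 0.00496), and so was Itga11 (log2 -1.25 ± 0.17, adjusted p = 0.00129). The median log2 difference of the 40 was -0.27 in the uterus against 0.00 over all genes.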

How the data were processed

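The deposited RNA-seq values were whole-number counts per gene, 1 table for the 12 fetal and 1 for the 6 uterine libraries, not normalized per the file headers and values. STAR 2.5 and featureCounts (Subread 1.5.0-p1) on mm10 are named per the submitters' processing notes. The fetal kit was non-stranded and the uterine kit stranded per the labels' protocols, and whether strand was used in counting is not given in the sources used here. The deposited ATAC-seq file was 1 list of peak positions on mm10, for which the submitters' processing notes name Bowtie 1.2, SAMtools 1.3.1, Picard, bedtools 2.24.0 and MACS2 2.1.1.

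Each table was fitted by itself with edgeR 4.0.16 in R 4.3.3 (TMM, filterByExpr, robust quasi-likelihood F test, two-sided, Benjamini-Hochberg over all genes tested, threshold 0.05). Adjusted p-values come from this fit unless an alternative is named beside them. SEs are the log2 fold change over the square root of F. Levels per length use the coding transcript of GENCODE vM21. DESeq2 1.42.0, other scalings and filters, 6 libraries alone, single libraries left out and a replicate block were alternatives.

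Any collagen could be named. Library values were to be given for Col1a1, Col1a2, Col3a1, Col4a1, Col4a2 and Col6a1 and for up to 5 members per direction and comparison with the largest called change and at least 1 CPM, and those of other members were added after seeing them. Listed processing genes were named for the 3 largest called changes per comparison. Members, lists and tests were chosen with earlier results of these data known. Same-numbered libraries deviated together at E16.5 (r = 0.28, 0.11 and 0.40 over genes). The fit behind the main calls took no account of this, and only the replicate block, an alternative, paired these numbers. Differently numbered XX and XY libraries at E16.5 gave r from -0.340 to 0.108, so the pair of replicate 2 (0.115) hardly stood apart from them. At E14.5 (0.05 to 0.07), between ages and in the uterus (0.00, 0.22 and 0.24) same numbers were not taken as pairs. Differently numbered uterine libraries gave r from -0.245 to 0.128. The block was run for those comparisons too.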

Additional observations from a re-analysis of the deposited data

Results flagged for a closer look

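The difference between the sexes changed from E14.5 to E16.5 for 20 of 42 collagens by the interaction term of edgeR's fit, and each value below is that term on the log2 scale. Towards XY the terms were -1.82 for Col25a1, -1.80 for Col4a4, -1.06 for Col9a1, -0.90 for Col13a1, -0.86 for Col4a3 and -0.80 for Col4a1. Smaller terms of that sign were -0.60 for Col4a2, -0.59 for Col4a5, -0.49 for Col8a2, -0.43 for Col4a6 and -0.40 for Col11a1. Type IV chains thus gave 6 of these 11. Towards XX the terms were 1.76 for Col6a5, 1.20 for Col9a3, 1.17 for Col6a6, 1.05 for Col2a1 and 0.94 for Col6a4. Smaller terms of that sign were 0.86 for Col7a1, 0.73 for Col9a2, 0.49 for Col27a1 and 0.45 for Col26a1. The 3 neighbouring type VI genes were all among these 9. Of the 20, 4 (Col2a1, Col4a6, Col7a1 and Col26a1) lost the call under at least 1 alternative. Col2a1 and Col4a6 each lost it under 1 only, the removal of a library (adjusted p = 0.0516 and 0.0546). Col7a1 and Col26a1 lost it without any of many single libraries (adjusted p up to 0.0791 and 0.102). Col7a1 lost it without the filter on low counts too (0.115), and Col26a1 with library size alone (0.0552). The replicate block added 5 (Col1a1, Col5a3, Col6a3, Col8a1 and Col12a1).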

How the results depend on the processing

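No collagen call changed direction under any alternative run. Under the other scalings, filters and fits and DESeq2, the calls among 42 collagens ran from 7 to 11 for sex at E14.5 (8 in edgeR's fit of all libraries), 32 to 36 at E16.5 (34), 31 to 35 for age in XX (33), 32 to 35 for age in XY (35), 19 to 25 for the interaction (20) and 27 to 32 in the uterus (28). Leaving out 1 library gave 6 to 8, 30 to 33, 28 to 33, 33 to 35, 17 to 21 and 23 to 28. Calls over all genes moved as well: without single libraries they ran from 3.03% to 9.20% for E14.5 sex, from 19.8% to 31.5% for E16.5 sex, 28.8% to 35.4% and 18.4% to 21.5% for age in XX and XY, 7.32% to 14.7% for the interaction and 11.8% (without Amhr2+ replicate 1) to 21.2% in the uterus. When only library size was scaled, 41.2% of all age calls in XY (56.1% with TMM) and 63.5% of all uterine calls (42.5%) were higher, while the collagens split 27 up and 8 down and 5 higher and 22 lower. Under every alternative 6, 28, 28, 32, 16 and 22 collagens kept their call. With the replicate block the counts were 10, 36, 31, 34, 25 and 30. At E14.5 the block added Col6a6, Col7a1 and Col15a1 (adjusted p = 0.0059, 0.000296 and 0.0325) and lost Col28a1. Beyond Col6a2 and Col7a1, named with the results, the block changed no E16.5 sex call. A peak lay near 88.6% of the 44 starts with a window of 5 kb (87.8% of all genes tested), against 77.3% with 1 kb, and over 65.9% of the starts themselves (65.8%). With peaks of the median width or more it was 63.6% (72.1%). With any GENCODE vM21 transcript start, an alternative chosen after seeing the data, it was 81.8% (89.1%). Depth limits Col10a1 and Col19a1, and 3 libraries per group limit all tests.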

Other observations

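The pair of collagens left out of the tests had few counts. Col10a1, the collagen of hypertrophic cartilage, had 6, 11 and 13 counts in the E16.5 XY libraries, 7, 1 and 1 in E16.5 XX and 1 in each E14.5 library. Without the filter on low counts edgeR gave a log2 change of 2.98 with age in XY (adjusted p = 0.00826). Col19a1, a FACIT, had 6, 6 and 7 counts in uterine Gli1+ libraries and 0 in each Amhr2+ library. Without the filter its log2 difference, which depends on the prior count, was -5.72 (adjusted p = 0.00297).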
